A study of Mus musculus with 4 samples.

Results

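Hedgehog signalling was followed through 9 genes, the ligands Dhh, Ihh and Shh, the receptor Ptch1, the signal transducer Smo, the ligand trap Hhip and the transcription factors Gli1, Gli2 and Gli3, in mouse gonads at 12.0 days post coitum, the stage at which testis and ovary begin to differ. The 9 genes were chosen by symbol from 12817 named genes on the array, and they have 10 of its 14010 named probes. Of these 10 probes, 8 gave a value on some array and 6 on all 4 arrays. The second Ptch1 probe and the Shh probe were blank on every array, and Ihh and Gli2 were blank on 1 array. Each array set 2 pools of total RNA against each other, labelled with Cy5 and Cy3. The XY arrays compared XY Wnt4+/+ gonads with XX Wnt4+/+ gonads, and the Wnt4 null arrays compared XX Wnt4-/- gonads with XX Wnt4+/+ gonads. Wnt4 is a secreted signal of the ovary. The Wnt4 probe had log2 ratios of -0.0806 and -0.18 on the Wnt4 null arrays, which did not pass (limma adjusted p = 0.781 with the dye term), and of -1.08 and -1.73 on the XY arrays. Where this probe lies relative to the deleted part is not stated in the labels, so it does not check the genotype, and Wnt4 null names these arrays by their label alone. There were 2 arrays per comparison with the dyes exchanged between them. Replicate 1 carried the XY or Wnt4 null RNA in Cy5, and replicate 2 carried it in Cy3. Gonads had been cut away from the mesonephros, and those of more than 100 embryos per genotype were pooled in several groups. Strain and Wnt4 allele are not given in the sources used here. Nothing in them says that the arrays of a comparison carried separate RNA extracts, so p-values measure the spread between arrays, which may be technical.

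Hedgehog ligands are secreted proteins that bind Ptch1 and so free Smo from its inhibition, after which Gli proteins change the transcription of target genes. Gli1, Ptch1 and Hhip are themselves transcribed in responding cells of many tissues, and Ptch1 and Hhip hold the signal back. In the fetal mouse testis Dhh is made by Sertoli cells, its receptor lies on neighbouring interstitial cells, and fetal Leydig cells depend on it.

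The values are log2 ratios centred on each array's median, and a positive value means more RNA than in XX wild type gonads. Means are given with the SD of 2 arrays. A ratio of pooled tissue does not tell fewer cells of a type from less RNA per cell, and no level of a gene can be read from it. The labels do not state this direction of the ratios. For the XY arrays it is likely, from the sex-linked genes below, and for the Wnt4 null arrays it could not be settled. The submitters' design gives XX wild type as reference throughout, and XY replicate 1 was turned. As deposited, the Y-linked gene Eif2s3y had -2.22 there and 2.25 on XY replicate 2, and Xist, the X inactivation transcript, had 1.67 and -1.22. A second Eif2s3y probe, at -0.64 and -0.46, did not separate the arrays. No sex-linked genes settle the Wnt4 null columns, since both of their pools are XX. Even so, as deposited, the first Eif2s3y probe had 1.53 and 0.18 on the Wnt4 null arrays, and the second had 0.71 and -1.37. As oriented, genes of ovarian supporting cells had the same sign on both of those arrays: Fst had -3.02 and -2.21, Irx3 -2.67 and -2.70, Sp5 -1.81 and -1.35 and Lgr5 -1.36 and -2.28, while Rspo1 had -0.65 and 0.86. Reading the columns as 1 dye over the other would set the first 4 in opposite directions. As deposited, XY replicate 1 and Wnt4 null replicate 1, which share a dye orientation, correlated at r = -0.62 across 12264 probes. In the directions used here the 2 XY arrays correlated at r = 0.0561 and the 2 Wnt4 null arrays at r = -0.46, across probes, which are not independent. Probes were named after an exchange of row and column within each printed block. In that order probes of the same gene had a rank correlation of 0.273 in the XY comparison (489 pairs), against -0.0140 in the deposited order. In the Wnt4 null comparison it was 0.0714 (577 pairs), against -0.0269, so this check says less there, although the same naming serves all 4 arrays. Spots of 10 repeated control oligos gave a further check. The share of their variance that lay between oligos averaged 0.467 over the 4 arrays, against 0.0928 in the deposited order.

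Of the pathway's own response genes, Gli1 and Ptch1 were higher in XY than in XX gonads by a test with a dye term and not without it, and Hhip, with a mean log2 ratio of 0.67, passed neither. Dhh, Smo and Gli3 had mean log2 ratios between -0.22 and 0.15, none past the test. Gli1 averaged 2.68-fold and Ptch1 2.21-fold of the XX wild type signal. Their limma adjusted p was 0.0186 and 0.0241 with the dye term, and 0.185 and 0.319 without it. Read as Cy3 over Cy5, which leaves the XY values as they are and turns a Wnt4 null array, the columns gave no call for either with the dye term (limma adjusted p = 0.334 and 0.294). Limma called 0 of the 6 tested probes in XX Wnt4 null gonads under either model, and Gli1 alone had an unadjusted p under 0.05 in each. Of all probes it called 0.196% with the dye term and 0% without, and 12% and 2.89% had an unadjusted p under 0.05. Gli1 averaged 1.49-fold there.

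**Figure D1:**
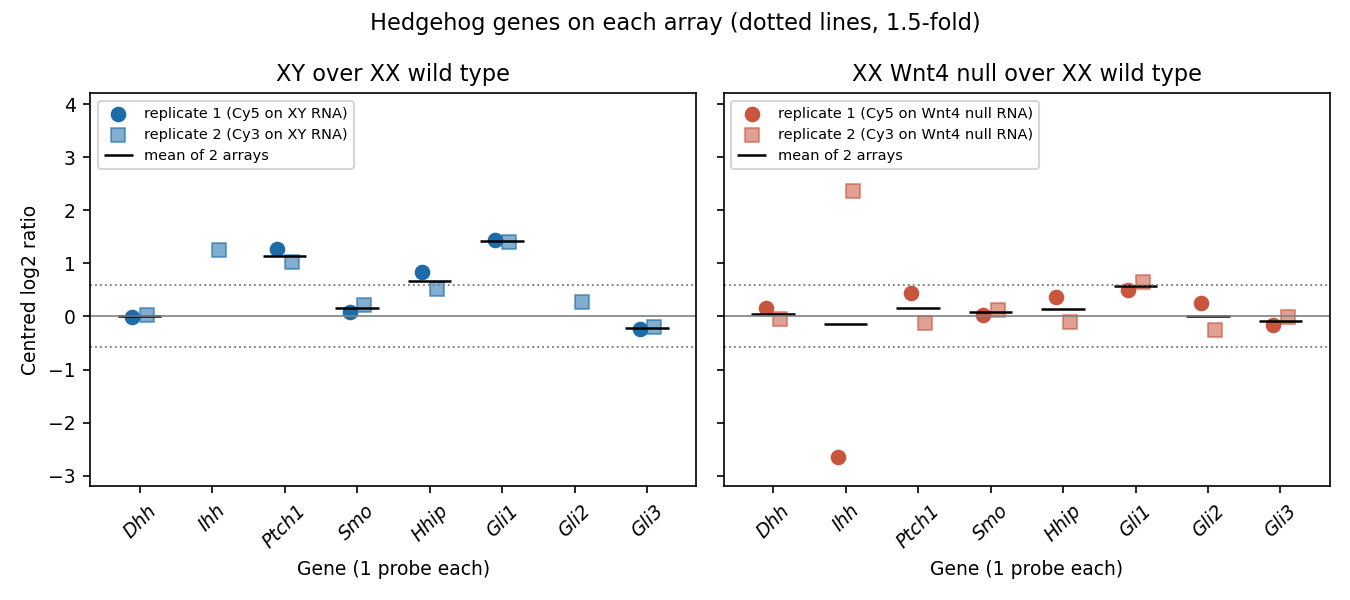
Centred log2 ratios of the 8 Hedgehog probes with a value, on the 2 XY arrays (left) and the 2 XX Wnt4 null arrays (right), each over XX wild type; circles are replicate 1, squares replicate 2, bars the mean where both arrays had a value, and dotted lines 1.5-fold. Gli1 and Ptch1 lie above the upper line on both XY arrays, and Ihh lies far apart on the Wnt4 null arrays, at -2.64 and 2.37.

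Dhh, the ligand of Sertoli cells, had -0.0186 on XY replicate 1 and 0.0271 on XY replicate 2. The mean was 0.0043 ± 0.0323, and the limma interval ran from -0.38 to 0.39 (95%). The mean ratio of the Dhh probe thus lay closer to no difference than the spread between arrays, and a ratio beyond 0.39 on the log2 scale lies outside that interval. No intensities were used, so a dim probe cannot be told from equal Dhh RNA in XY and XX gonads. Both Sertoli genes named here were above 0 on the same arrays: Sox9, the transcription factor gene that starts Sertoli differentiation, had 0.99 and 0.88, and Amh, which encodes anti-Müllerian hormone, had 0.98 and 0.24. Ihh, a ligand known from cartilage and gut, had a value on XY replicate 2 alone, 1.26, so no mean or test is given. Shh, the ligand of the notochord and limb bud, had none.

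Ptch1, the receptor, had 1.27 and 1.02 on the XY arrays. Both arrays lie above 1.5-fold, and the mean was 1.15 ± 0.18 (limma interval 0.599 to 1.69). Smo, the membrane protein that Ptch1 restrains, had 0.0862 and 0.21, with a mean of 0.15 ± 0.09 and an interval of -0.23 to 0.53. Hhip, which binds all 3 ligands at the cell surface, had 0.83 and 0.51. Only replicate 1 passed 1.5-fold, and the mean of 0.67 ± 0.23 had an adjusted p of 0.0507 with the dye term and 0.678 without it (limma). Of all 12264 tested probes, 0.612% had a higher mean than Ptch1 and 1.97% a higher mean than Hhip.

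Because Ptch1 and Hhip had the highest XY ratios of the genes at the cell surface, their promoter windows are shown (RefSeq, GRCm38.p6, 250 bases before to 50 after the start, 5′ to 3′). Windows were found for 7 of the 9 genes, all but Gli1 and Shh. They were searched on both strands for GACCACCCA, the consensus bound by Gli proteins, and for its inner part CCACCC, which lies within it. Capitals mark CCACCC or its reverse complement GGGTGG. Hhip lies at chr8:80057959-80058258 and Ptch1 at chr13:63565686-63565985, both on the minus strand. The Hhip window spans the upstream end of its gene, at 80058060. The Ptch1 window lies inside its gene, whose upstream end is at 63573460, so it covers an internal start only.
Hhip: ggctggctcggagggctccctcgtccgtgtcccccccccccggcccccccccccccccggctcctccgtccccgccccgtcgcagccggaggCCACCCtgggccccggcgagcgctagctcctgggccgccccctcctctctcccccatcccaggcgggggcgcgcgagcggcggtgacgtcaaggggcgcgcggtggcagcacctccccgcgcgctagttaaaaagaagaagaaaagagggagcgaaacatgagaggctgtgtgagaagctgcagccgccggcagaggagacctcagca
Ptch1: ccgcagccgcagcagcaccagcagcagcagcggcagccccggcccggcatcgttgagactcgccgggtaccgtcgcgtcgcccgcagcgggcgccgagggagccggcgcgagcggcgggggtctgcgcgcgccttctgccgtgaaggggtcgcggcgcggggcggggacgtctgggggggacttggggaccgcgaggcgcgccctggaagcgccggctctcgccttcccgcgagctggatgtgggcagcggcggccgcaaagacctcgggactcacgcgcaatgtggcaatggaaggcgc

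GACCACCCA was in 0 of the 7 windows and in 0.253% of all 32851 promoter windows. CCACCC or its reverse complement was in 6 of the 7 windows and in 31.5% of all. From 61.7% to 76.3% of the bases in the 7 windows were G or C, and base content was not matched to that of all windows. The 6 of 7 is therefore no measure of enrichment. Each window was also read for where the shorter sequence lies. The Hhip window holds it once. The internal window of Ptch1, the gene with the larger XY ratio, does not hold it, and the upstream end of Ptch1 was not searched. The windows of Dhh, Smo, Gli2, Gli3 and Ihh hold CCACCC or its reverse complement too. These matches are descriptions of the letters and not of binding.

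Gli1, a transcriptional activator and the usual readout of the pathway, had 1.44 and 1.40 on the XY arrays. The 2 arrays lie closer together than for Ptch1 or Hhip, with a mean of 1.42 ± 0.03 and a limma interval of 1.04 to 1.80. Its mean ranked 45th from the top of 12264 probes, Ptch1 ranked 76th and Hhip 243rd. Gli2, the main activator of the signal in most tissues, had 0.26 on XY replicate 2 and was blank on replicate 1. Gli3, which acts mostly as a repressor where no ligand arrives, had -0.24 and -0.21. It is the member with a negative value on both XY arrays, but its mean of -0.22 ± 0.02 did not pass (limma adjusted p = 0.314 with the dye term).

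Counted together, 2 of the 6 tested member probes were at least 1.5-fold higher on both XY arrays and 0 were lower. Among all tested probes 1.37% were higher and 1.32% lower by this rule, 2.69% in all. Above 0 on both arrays were 4 of 6, against 21.8% of all probes. With the dye term limma called 2 of 6 higher, against 1.36% of all probes (1.33% were called lower), and without it 0 of 6 (3 at an unadjusted p under 0.05), as it called 0 of 12264, or 0%, with 686 (5.59%) at an unadjusted p under 0.05. In the model with dye, 3 members and 18.6% of all probes had an unadjusted p under 0.05. The 6 probes had a median mean of 0.41, beside 0.0027 for all tested probes. With all columns turned, Gli1, Ptch1 and Hhip would be lower in XY gonads by the same amounts, at -1.42, -1.15 and -0.67. The same turn would set the first Eif2s3y probe lower and Xist higher in XY gonads.

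**Figure D2:**
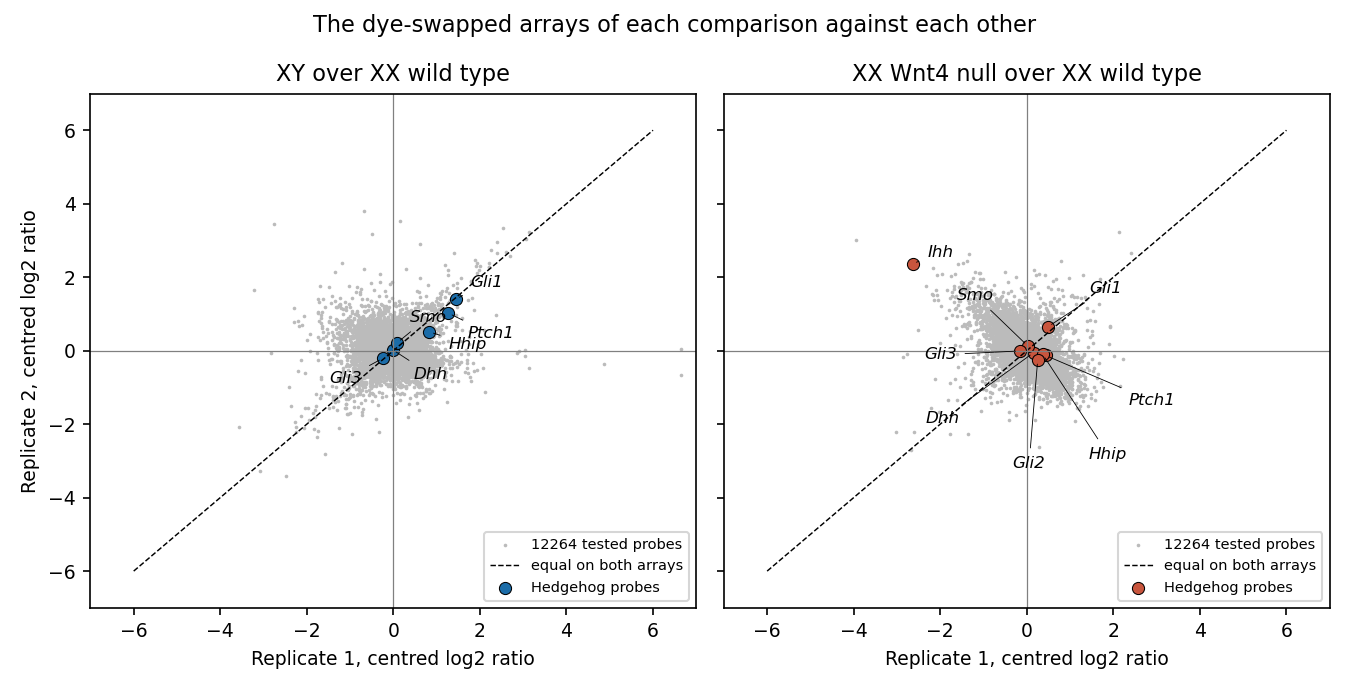
Replicate 2 against replicate 1, both as centred log2 ratios, for the 12264 tested probes (grey) and the Hedgehog probes with values on both arrays (coloured), in the XY comparison (left) and the XX Wnt4 null comparison (right). Of the Hedgehog probes in XY, Gli1, Gli3 and Dhh lie closest to the dashed line of equal values and Hhip farthest from it. In Wnt4 null most probes run across that line and Ihh lies far from it.

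In XX Wnt4 null gonads Gli1 had 0.49 and 0.65, above 0 on both arrays. The mean was 0.57 ± 0.11, with a limma interval of 0.193 to 0.95. It did not pass with the dye term (adjusted p = 0.162) or without it (adjusted p = 0.999963). Its mean ranked 187th from the top, and 1.52% of all tested probes were higher. Gli3 had -0.16 and -0.0077. Gli2, measured on both of these arrays, had 0.25 and -0.25, and its mean of -0.00027 ± 0.36 takes no side.

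The receptor and the ligand trap did not hold one sign in the Wnt4 null comparison. Ptch1 had 0.43 on replicate 1 and -0.13 on replicate 2, with a mean of 0.15 ± 0.40 and an interval of -0.395 to 0.70. Hhip had 0.37 and -0.10, with a mean of 0.13 ± 0.33 and an interval of -0.39 to 0.66. For both genes the SD is larger than the mean, so no difference from XX wild type can be told from the spread between arrays. Smo had 0.0219 and 0.13, and Dhh had 0.16 and -0.0533. Their intervals, -0.30 to 0.45 for Smo and -0.34 to 0.44 for Dhh, both cross 0.

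Ihh gave the widest split of the set. It had -2.64 on Wnt4 null replicate 1, where XX wild type RNA carried Cy3, and 2.37 on replicate 2, where XX wild type RNA carried Cy5. On XY replicate 2, where XX wild type RNA also carried Cy5, it had 1.26. The 3 signs therefore follow the dye of the XX wild type RNA. The part of the Wnt4 null values that turns with the dye, taken as the replicate 1 minus replicate 2 difference divided by the number of arrays, was -2.50, while 95% of tested probes were under 0.773 in size. Its mean of -0.14 ± 3.54 says nothing of Ihh RNA. Read as Cy5 over Cy3, Ihh would be more than 1.5-fold lower on both Wnt4 null arrays, and read as Cy3 over Cy5 more than 1.5-fold higher on both.

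By the 1.5-fold rule 0 of the 6 tested member probes passed in the same direction on both Wnt4 null arrays, and neither did Ihh or Gli2. Among all tested probes 1.05% passed, 0.554% higher and 0.497% lower. Limma called 0 of 6 with the dye term, where it called 0.196% of all probes, 0.13% higher and 0.0652% lower, and 0 of 6 without it, where it called 0% (354 of all probes and 1 member at an unadjusted p under 0.05). Gli1 and Smo, 2 of 6, were above 0 on both arrays, as were 15.7% of all probes. The member median was 0.10, beside 0.0020 for all tested probes. With all columns turned, the Gli1 mean would be -0.57 in Wnt4 null gonads, while read as Cy3 over Cy5 it would be 0.0812 and read as Cy5 over Cy3 -0.0812.

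The difference between the comparisons was tested as XY minus Wnt4 null, which share XX wild type as reference. For Gli1 it was 0.95 between the replicate 1 arrays and 0.75 between the replicate 2 arrays, with an estimate of 0.85 (limma interval 0.315 to 1.38). For Ptch1 it was 0.84 and 1.15, with an estimate of 0.99 (interval 0.222 to 1.77). Hhip gave 0.47 and 0.61, with an estimate of 0.54 (interval -0.198 to 1.28, and 0.183 to 0.897 with the dye term). For these 3 genes both dye-matched differences were above 0, so XY arrays were the higher ones each time. None passed limma over all probes: the adjusted p was 0.325 for Gli1, 0.288 for Ptch1 and 0.455 for Hhip with the dye term, and 0.999978 for each without it. Limma called 0% of all probes in this comparison with or without the dye term, and 3 and 2 members had an unadjusted p under 0.05, as had 8.95% and 1.61% of all probes. With the dye term and arrays scaled to a common spread, a setting chosen after seeing the data, 2 members passed (lowest adjusted p = 0.0482). For Dhh, Smo and Gli3 the estimates were -0.0477, 0.0752 and -0.14, each with an interval across 0.

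**Figure D3:**
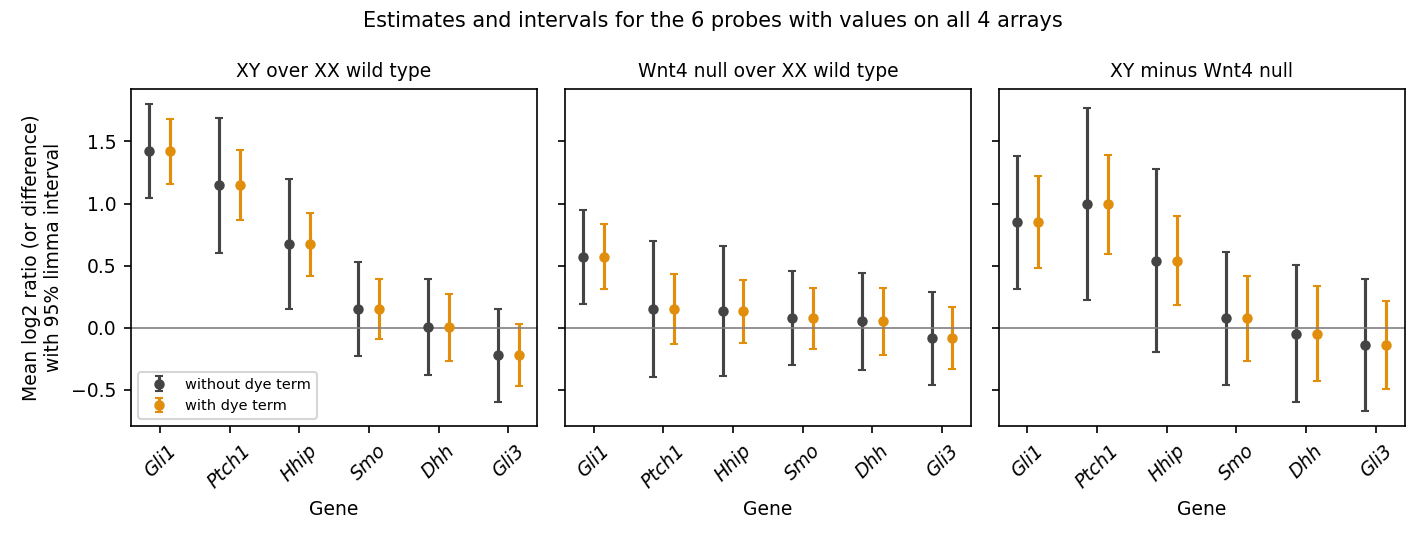
Limma estimates with 95% intervals for the 6 Hedgehog probes with values on all 4 arrays, without a dye term (grey) and with one (orange): XY over XX wild type, Wnt4 null over XX wild type, and the difference between both, on the log2 scale. The XY intervals of Gli1, Ptch1 and Hhip lie above 0 with and without the dye term, and those of Dhh and Smo cross 0 in all 3 panels.

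Other pathway genes were taken as a list. It covered ligand release, co-receptors, cilium transport, kinases and Gli degradation, and held 53 symbols, of which 33 genes on 36 probes were tested. In XY the list median was -0.0481, with 9 probes above 0 and 8 below on both arrays and 19 of opposite sign. Of all tested probes, 21.8% were above 0 on both XY arrays. The unadjusted limma p was under 0.05 for 8 of 36 with the dye term, beside 18.6% of all probes, and for 3 without it, beside 5.59%. After adjustment limma called 0 without the dye term, and with it 1 higher and 1 lower of 36, beside 2.69% of all probes. The higher one was Gpc3, a cell-surface glypican that competes for Hedgehog ligand, with 1.01 and 0.77 (0.89 ± 0.17, adjusted p = 0.0384 with the dye term). The lower one was Numb, an endocytic adaptor linked to Gli1 degradation, with -1.20 and -0.63 (-0.92 ± 0.40, adjusted p = 0.0338 with the dye term). Boc, a co-receptor that helps ligand reach Ptch1, had -0.63 and -0.54 and did not pass (limma adjusted p = 0.0704 with the dye term). The other named ones were Scube2, which releases ligand from cells (0.40 ± 0.32), Arrb1, an arrestin (0.36 ± 0.26), Rab23, a ciliary GTPase that restrains the signal (0.32 ± 0.02), Kif3a, a motor of cilium transport (-0.27 ± 0.11), and Tulp3, which brings receptors to the cilium (-0.38 ± 0.20). Second probes of Scube2 and Tulp3, blank on XY replicate 1, had -0.34 and -0.62 on XY replicate 2, for Scube2 opposite in sign to the named probe. Sufu, which holds Gli proteins in check, averaged 0.0380 and -0.10 on its 2 probes.

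In Wnt4 null gonads the pathway list had a median of -0.0121, with 4 probes above 0 and 8 below on both arrays and 24 of opposite sign. Of all tested probes, 15.7% were above 0 on both Wnt4 null arrays. Limma called 0 of 36 with the dye term, beside 0.196% of all probes, and 0 without it. The unadjusted p was under 0.05 for 6 of 36 with the dye term, beside 12% of all probes, and for 1 without it, beside 2.89%. Gpc3 was again the highest, with 0.86 and 0.27 (0.56 ± 0.42). Gas1, a co-receptor, had 0.60 and 0.26, followed by Kif3a (0.32 ± 0.25) and the kinase gene Dyrk2 (0.14 ± 0.17). The lowest were Csnk1e, a casein kinase gene (-0.38 ± 0.33), Tulp3 (-0.36 ± 0.19), Boc (-0.27 ± 0.20) and Cul1, a subunit of the ligase that processes Gli3 (-0.26 ± 0.05). The second Tulp3 probe differed in sign between the Wnt4 null arrays, at 0.76 and -0.27.

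Genes that answer Hedgehog in other tissues formed a second list of 35 symbols, with 23 genes on 25 probes tested. It shares 4 symbols and 2 tested probes with the pathway list. In XY its median was 0.0721, with 6 probes above 0 and 3 below on both arrays and 16 of opposite sign. Of all tested probes, 21.8% were above 0 on both XY arrays. Limma called 0 of 25 under either model, beside 2.69% of all probes with the dye term. The unadjusted p was under 0.05 for 10 of 25 in that model, beside 18.6% of all probes, and for 3 in the other, beside 5.59%. The highest was Tbx2, a T-box gene, with 0.37 and 0.83 (0.60 ± 0.33, limma adjusted p = 0.0597 with the dye term), followed by the forkhead gene Foxc2 (0.51 ± 0.32), Igfbp3, which binds insulin-like growth factors (0.40 ± 0.43), and Nr2f2, a nuclear receptor gene of interstitial cells (0.29 ± 0.28). Besides Boc the lowest were Mycn (-0.46 ± 0.05), a Hedgehog target of brain precursors, and the cyclin gene Ccne1 (-0.0877 ± 0.0399). Only 3 probes were below 0 on both arrays, so the fourth from the bottom, Rab34, was above 0 (0.26 ± 0.20). In Wnt4 null the median was 0.0272, with 6 probes above 0 and 5 below on both arrays, beside 15.7% of all probes above 0 on both. Limma again called 0 of 25 (8 with the dye term, beside 12% of all probes, and 1 without, beside 2.89%, at an unadjusted p under 0.05). Nr2f2 was highest there (0.64 ± 0.48), ahead of Gas1, the Wnt antagonist gene Sfrp1 (0.34 ± 0.13) and Tbx2 (0.30 ± 0.35), while Mycn (-0.27 ± 0.17), Boc, Ccne1 (-0.22 ± 0.18) and the cyclin gene Ccnd2 (-0.19 ± 0.04) were lowest. A second Nr2f2 probe differed in sign between arrays in both comparisons, at 1.02 and -0.0750 in XY and 1.51 and -0.22 in Wnt4 null. A second Sfrp1 probe did so too, with -0.60 and 0.37 in Wnt4 null.

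**Figure D4:**
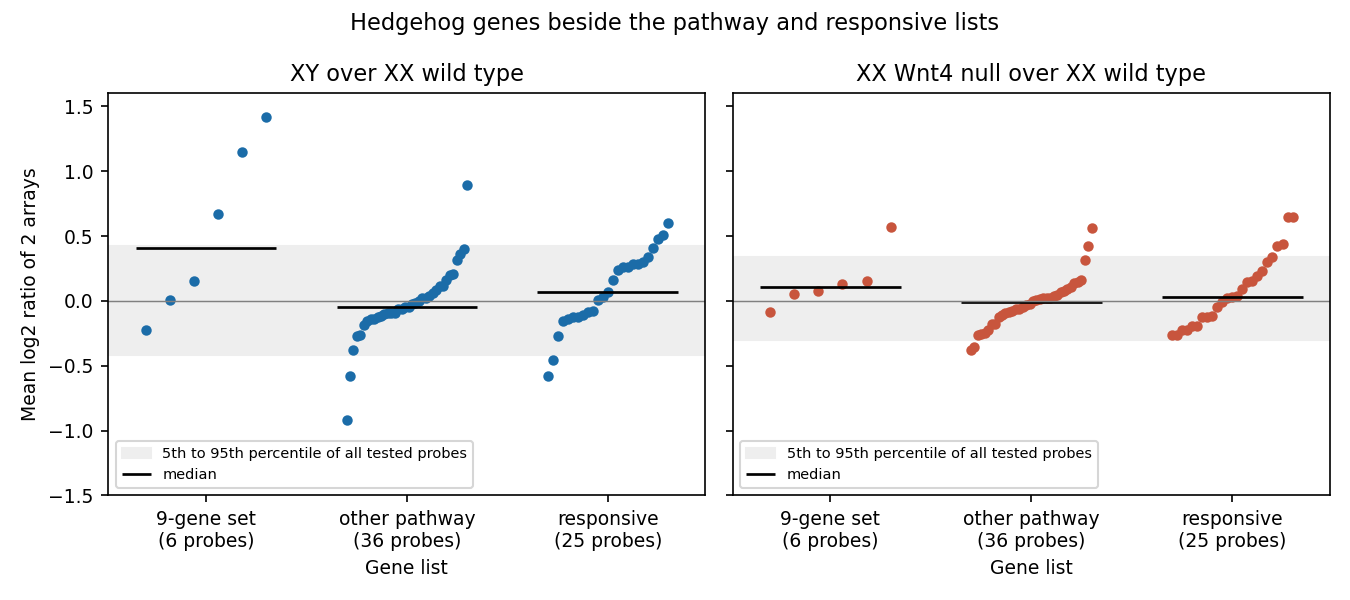
Mean log2 ratio over 2 arrays of each tested probe of the 9-gene Hedgehog set, of the other pathway genes and of the responsive genes, in XY (left) and XX Wnt4 null (right), over XX wild type; bars are medians and the grey band holds the 5th to 95th percentile of all tested probes. In XY, Gli1, Ptch1 and Hhip lie above the band, as do Gpc3 of the pathway list and Tbx2, Foxc2 and an Nr2f2 probe of the responsive list. Numb, Boc and Mycn lie below it. The medians of both other lists lie near 0 in XY, at -0.0481 and 0.0721. In Wnt4 null, Gli1 lies above the band, as do probes of both other lists.

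Marker genes of the cell types in the gonad are given by sign and median, and their part in the Hedgehog values was not tested. Without the dye term limma called 0 of all tested probes in either comparison. Above 0 on both arrays were 21.8% of all tested probes in XY and 15.7% in Wnt4 null. The share of all probes below 0 on both arrays was not computed. In XY, 7 of 9 tested Sertoli probes, Dhh being one of the other 2, were above 0 on both arrays (median 0.86), as were 7 of 9 stroma probes (median 0.36), with Tcf21 at 1.08 and 1.42 and the growth factor receptor gene Pdgfra at 0.72 and 0.92. Igf1, also on the stroma list, went the other way, with -0.63 and -0.90 in XY and -0.46 and -0.31 in Wnt4 null. In Wnt4 null, 2 of 9 Sertoli probes (median 0.11) and 6 of 9 stroma probes (median 0.65) were above 0 on both arrays. None of 6 tested mesonephric duct probes was above 0 on both arrays of either comparison (medians -0.40 in XY and -0.20 in Wnt4 null). In XY 4 were below 0 on both arrays and 2 had opposite signs. In Wnt4 null 2 were below 0 on both and 4 had opposite signs. Of 6 endothelial probes 4 were above 0 on both XY arrays and 3 on both Wnt4 null arrays (medians 0.24 and 0.19). All 5 germ cell probes were below 0 on both XY arrays and 2 on both Wnt4 null arrays (medians -0.52 and -0.0286). Of 6 ovary supporting probes 5 were below 0 on both arrays in each comparison, and all 4 macrophage probes were above 0 on both Wnt4 null arrays and 0 on both XY arrays. The 1 tested red blood cell probe, Alas2, averaged -0.0266 in XY and -0.0222 in Wnt4 null. Summed levels cannot be formed from ratios. Of the fetal Leydig genes, 4 of 9 were tested. In XY 1 was above 0 and 1 below on both arrays (median -0.10), and in Wnt4 null 2 were above and 0 below (median 0.41). Cyp11a1, whose enzyme makes pregnenolone from cholesterol, had 0.0455 and -0.16 in XY and 1.25 and 1.42 in Wnt4 null. Mc2r, the corticotropin receptor gene, had 0.88 and 0.45 in XY and 0.77 and 0.46 in Wnt4 null. Cyp17a1 differed in sign between the arrays of each comparison, and Fdx1 averaged -0.14 in XY and -0.0705 in Wnt4 null.

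Among the 10442 named probes with values on all 4 arrays, those nearest to Gli1 by Euclidean distance over the 4 values were Adamts9, a matrix protease gene (distance 0.273), Mapk13, a p38 kinase gene (0.283), Gstm3, a glutathione transferase gene (0.334), and Smtn, the gene of the smooth muscle protein smoothelin (0.421). Nearest to Ptch1 were Grb14, a receptor adaptor gene (0.110), Etv1, an ETS transcription factor gene (0.244), Rnf181, a ubiquitin ligase gene (0.314), and Col27a1, a fibrillar collagen gene (0.335). Grb14 had 1.36 and 0.99 in XY, with 0.45 and -0.0721 in Wnt4 null. Likeness over 4 arrays is a description of these arrays alone.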

How the data were processed

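Total RNA of pooled gonads was measured on 4 two-colour arrays of spotted oligonucleotides, 2 per comparison. The authors deposited a log2 ratio of the dyes per spot and array; base 2 was read from the lowest value of XY replicate 1, -6.64, the log2 of 0.01. The authors' normalization and numerator are unstated in the labels. Column medians as deposited were -0.0019 and -0.0172 for XY replicates 1 and 2 and 0.00840 and -0.0388 for Wnt4 null replicates 1 and 2. Scale and centring are thus inferred, and direction is likely only for the XY arrays and not settled for the Wnt4 null arrays. No intensities were used here, so dim spots could not be judged, and no correction or filter based on intensity was tried. The number of arrays limits the precision.

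XY replicate 1 was turned, and arrays were centred on their medians. Rows and columns of each block of 552 spots were exchanged to join the platform's genes, updated by Entrez identifier to GRCm38.p6 (13908 matched, 0 symbols altered, of 14010 spots with 1 symbol, 13 with several and 3641 with none). A single limma 3.58.1 fit (R 4.3.3, lmFit, eBayes; a coefficient per comparison, no dye term) took the 12264 spots measured on every array, with Benjamini-Hochberg adjustment over all of them, two-sided, called under 0.05. The fit was tested on simulated data. The alternative with a dye term leaves 1 residual degree of freedom in place of 2. Other alternatives were centring, scale, column direction, probes tested, separate fits, a robust prior, size limits and leaving out each array. All members, the 4 highest and 4 lowest of each list by mean among probes whose arrays share a sign, called genes, and the 4 nearest probes of members past 1.5-fold on both arrays were named, with at most 2 genes per marker list. Alas2, Sufu, Mc2r, Fdx1, Irx3, Sp5, Lgr5, Rspo1, Igf1 and second probes were named after their values were seen. Members and lists were chosen with earlier results of these data known.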

Additional observations from a re-analysis of the deposited data

How the results depend on the processing

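The labels give no replicate numbers, so arrays were paired across comparisons only by dye orientation, and the dye term is the replicate block for it; its counts follow. The count of member probes called in XY, 0 of 6 without a dye term, became 2 with it, and 3 (Gli1, Ptch1 and Hhip) when the dye term was joined to deposited centring, centring in printed blocks or arrays scaled to a common spread, settings chosen after seeing the data. With that scaling 2 members also passed the test of XY minus Wnt4 null (lowest adjusted p = 0.0482). With the dye term and columns read as Cy3 over Cy5, which turns a Wnt4 null array and leaves the XY values alone, 0 were called in XY, with an adjusted p of 0.334 for Gli1 and 0.294 for Ptch1. Their calls thus rest on the direction of the other comparison. No array could be left out of the fit with the dye term, since no residual degree of freedom remains.

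The 2 members past 1.5-fold on both XY arrays became 0 with columns as deposited, and were 3 when either XY array was left out (Ihh or Hhip added) or when the mean had to pass, and 2 under the other settings tried. The 0 of Wnt4 null became 1 read as Cy5 over Cy3 and 1 read as Cy3 over Cy5, Ihh each time, and 1 to 2 when a replicate was left out and 1 array alone had to pass. With all columns turned the means had the opposite sign: in XY 0.22 for Gli3, -0.15 for Smo, -0.67 for Hhip, -1.15 for Ptch1 and -1.42 for Gli1, and in Wnt4 null 0.0849 for Gli3, -0.0753 for Smo and -0.57 for Gli1. Read as Cy5 over Cy3 the XY means were those same values, and the Wnt4 null means were -0.0534 for Smo and -0.0812 for Gli1. Either of these readings would set the first Eif2s3y probe lower and Xist higher in XY gonads. Read as Cy3 over Cy5 the Wnt4 null mean of Gli3 was 0.0772. With columns as deposited the XY means were -0.0223 for Gli1, -0.12 for Ptch1, -0.16 for Hhip and 0.0176 for Gli3. Over the settings that kept the columns' directions, the limma adjusted p in XY ran from 0.00108 to 1 for Gli1, from 0.00205 to 1 for Ptch1 and from 0.00851 to 1 for Hhip, and in Wnt4 null from 0.0765 to 0.999983 for Gli1.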
